A study of Mus musculus with 12 samples.

Results

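Kidney mRNA levels were measured for 8 transcription factors of the nephron lineage, *Hnf4a*, *Hnf4g*, *Pax2*, *Pax8*, *Lhx1*, *Tfcp2l1*, *Grhl2* and *Gata3*, which were taken by symbol from a table of 35275 mouse genes. All 8 had a single entry and passed the filter on low counts in every comparison. The table held RNA-seq read counts from whole kidneys of 12 mice at 6 months of age on a C57BL/6J background, 4 in each of 3 groups, with 2 females in each group. WT mice carried neither mutation. RC/RC mice were homozygous for the RC knock-in allele of *Pkd1*, a hypomorphic allele that gives slowly progressive polycystic kidney disease. RC/RC:*Casp1*KO mice, called the double mutant below, carried that same *Pkd1* allele on both chromosomes together with a homozygous TALEN-made deletion in *Casp1*, the inflammasome protease, that removes the codon of the active-site cysteine. Both alleles were present in every cell and not in a chosen cell type, and no group carried the *Casp1* deletion alone. The column names give the group of a mouse and not its sex, so females and males were analyzed together. Nothing in the labels says that mice of a group came from separate litters.

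The 8 genes encode DNA-binding proteins that build the kidney tubule and then keep its cells in their mature states. PAX2 and PAX8 are paired-box factors that set aside the renal lineage in the embryo, and LHX1 is a LIM-homeodomain factor that acts with them in the nephric duct and the early nephron. GATA3 is a zinc-finger factor of the nephric duct and the collecting duct, where TFCP2L1 and GRHL2, members of the grainyhead-like superfamily, act in intercalated cell differentiation and in the epithelial barrier. HNF4A is the nuclear receptor that drives proximal tubule maturation, and HNF4G is its close paralog. Polycystic kidney disease arises from tubule epithelium, and loss of mature tubule gene expression is one of its known features.

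Promoter sequences are shown for the 2 members whose RC/RC and WT levels did not overlap in scaled read counts (CPM, defined below), *Lhx1* and *Tfcp2l1*. They are the 250 bases before the transcription start in RefSeq (GRCm38.p6), 5′ to 3′ on the strand of the gene, and capitals mark a motif match. RefSeq entries were matched for 6 of the 8 members, with 9 starts in all, and none was matched for *Hnf4g* or *Grhl2*.
Lhx1, chr11:84525535-84525784, minus strand: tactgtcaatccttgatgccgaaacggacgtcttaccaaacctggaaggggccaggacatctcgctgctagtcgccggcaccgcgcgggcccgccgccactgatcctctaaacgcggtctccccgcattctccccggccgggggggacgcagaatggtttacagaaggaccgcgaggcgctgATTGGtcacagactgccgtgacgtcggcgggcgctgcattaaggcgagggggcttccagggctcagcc
Tfcp2l1, chr1:118627695-118627944, plus strand: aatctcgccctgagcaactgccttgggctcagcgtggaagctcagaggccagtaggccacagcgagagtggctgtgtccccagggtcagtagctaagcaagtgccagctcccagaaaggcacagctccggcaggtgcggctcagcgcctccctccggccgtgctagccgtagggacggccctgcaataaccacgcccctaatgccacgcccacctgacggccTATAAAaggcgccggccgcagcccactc
The *Lhx1* window was 64.8% G or C with 26 CG dinucleotides, against medians of 52.4% and 6 over 32851 mouse promoter windows of that length. Its capitals are a CCAAT box (CCAAT) on the opposite strand, beginning 68 bases upstream of the start, a motif that 33.8% of all windows held on either strand. The *Tfcp2l1* window held a TATA box (TATAAA) beginning 28 bases upstream, as did 12.4% of all windows on either strand. The letters AGATAA for GATA factors, AACCGGTT for grainyhead-like factors, CAAAGTCCA for HNF4 and TAATTA for LIM-homeodomain factors were searched on both strands as well, and the *Lhx1* and *Tfcp2l1* windows held none of them. They stood in 9.99%, 0.116%, 0.384% and 4.84% of all windows. These matches describe letters and not bound sites.

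Libraries held 18019819 to 24869454 counted reads, with 20556335 to 22656309 in WT, 18019819 to 24284831 in RC/RC and 18738755 to 24869454 in RC/RC:*Casp1*KO mice. The members were covered by 127 to 25535 reads in a mouse, the fewest on *Hnf4g* and the most on *Hnf4a*. Levels are given as CPM, read counts scaled to a common library size with TMM factors, and as FPKM, which also divides by gene length, where genes are compared with each other. The targeted gene followed its label. *Casp1* had 10 to 23 reads in RC/RC:*Casp1*KO mice, 61 to 87 in RC/RC mice and 26 to 43 in WT mice. It was higher in RC/RC than in WT mice (log2 fold change 1.21, SE 0.25, edgeR adjusted p = 0.0142) and lower in RC/RC:*Casp1*KO than in RC/RC mice (log2 fold change -2.35, SE 0.32, adjusted p = 0.00514). *Pkd1* passed no test, at 52.9 ± 13.4 CPM in WT, 55.3 ± 9.70 CPM in RC/RC and 71.4 ± 12.2 CPM in the double mutant (means ± SD of 4 mice).

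A few libraries stood apart. Adipocyte genes (*Adipoq*, *Plin1*, *Cfd* and *Fabp4*, the most abundant) summed to 1729 CPM in RC/RC mouse RC139 and to between 40.0 and 209 CPM in the other 11 mice. Genes annotated as antisense took 0.0980% to 0.115% of reads in RC/RC:*Casp1*KO mice, 0.0710% to 0.0887% in RC/RC mice, and 0.0741%, 0.0736%, 0.0889% and 0.0870% in WT mice B6_2, B6_3, B6_4 and B6_6. Each group was also parted into pairs by *Slc7a13*, an amino acid transporter of the proximal tubule that is known to be higher in male than in female mouse kidney. It stood at 2.20 to 5.31 CPM in B6_2, B6_3, RC105, RC139, Del3_60 and Del3_105 and at 534 to 1100 CPM in the other 6 mice. No sex was assigned to a mouse from these values. The WT pairs were the same as those of the antisense share. A fit with the log2 level of *Slc7a13* as a covariate was added after the values were seen, and it called 17.9%, 17.1% and 8.45% of all genes in the 3 comparisons in the order used below. Del3_70 stood apart from the other double mutants in some genes of injury and macrophages, with the injury marker *Havcr1* at 41.9 CPM against 6.09 to 12.996 and the macrophage gene *Lyz2* at 125 CPM against 45.03 to 48.4. *Lhx1* was called in the same comparisons without RC139, without Del3_70 and with the covariate. Marker genes of the proximal tubule, thick ascending limb, distal convoluted and connecting tubule, principal cell, intercalated cell and podocyte were all detected, with none at 0 in all mice.

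Across the 12 mice the 8 genes covered a wide range of levels. *Hnf4a* was the most abundant at 211 ± 24.8 FPKM (SD, n = 12), followed by *Tfcp2l1* at 43.1 ± 8.91, and these did not overlap each other or any other member in any mouse. *Pax8* (19.0 ± 2.33 FPKM), *Pax2* (11.96 ± 3.15), *Lhx1* (7.11 ± 2.27), *Gata3* (5.80 ± 1.41), *Hnf4g* (2.80 ± 0.821) and *Grhl2* (2.21 ± 0.771) followed, and each of these overlapped its neighbor in the order. *Lhx1* varied most between mice, with its highest CPM 3.05 times its lowest, and *Pax8* least, at 1.48 times.

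The first comparison, RC/RC against WT, asks what the cystic disease of the RC allele changed. *Lhx1* fell to 0.484 of its WT level. *Tfcp2l1* was lower in CPM, though not in FPKM, in every RC/RC mouse than in any WT mouse but missed the threshold. The other 6 members were not called. Of the 8 members, 1 passed the test (*Lhx1*, lower), and 12.9% of the 15243 genes tested did so (9.76% higher and 3.18% lower). At an unadjusted p under 0.05 the members numbered 3, adding *Tfcp2l1* and *Gata3*, and 4457 of the 15243 genes tested passed that cut. In CPM the groups did not overlap for 2 members, and this held for 19.3% of all genes (12.7% higher and 6.58% lower). These members were *Lhx1* and *Tfcp2l1*, and in FPKM the groups overlapped for *Tfcp2l1*. The median log2 fold change of the members was -0.15, and that of all genes tested was -0.02. A count of 1 or 2 in 8 is near the background share.

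**Figure D1:**
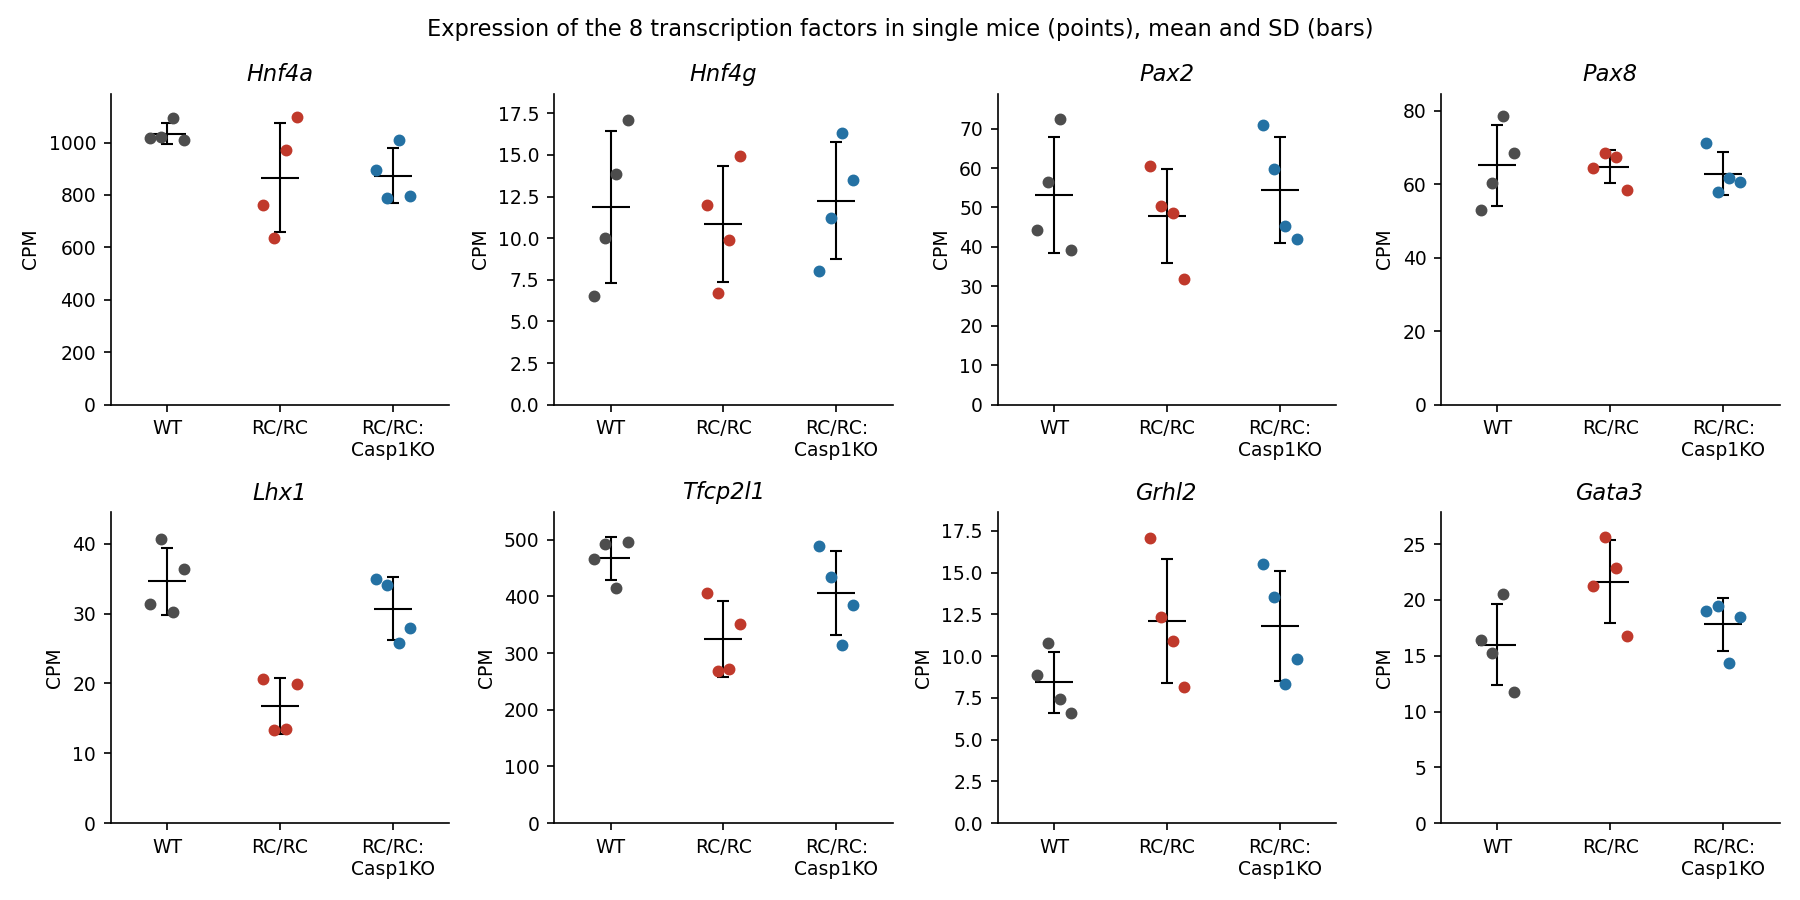
Level of each of the 8 transcription factors (CPM, linear axes from 0) in each of the 4 WT (gray), 4 RC/RC (red) and 4 double mutant (blue) mice, as points, with the group mean and SD as bars. *Lhx1* lies between 13.3 and 20.7 CPM in RC/RC mice and at 25.8 CPM or more in the mice of the other groups, while the groups overlap for *Pax2*, *Pax8*, *Hnf4g* and *Grhl2*.

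*Lhx1* (ENSMUSG00000018698, chr11:84518284-84525535, minus strand, mm10) stood at 31.3, 40.6, 30.2 and 36.4 CPM in the 4 WT mice. It stood at 20.7, 13.3, 13.4 and 19.9 CPM in the RC/RC mice, and at 35.02, 34.1, 25.8 and 27.9 CPM in the RC/RC:*Casp1*KO mice. Every RC/RC mouse was below every mouse of the other 2 groups, and the WT and RC/RC:*Casp1*KO mice overlapped. The mean fell from 34.6 CPM (SD 4.81, n = 4) in WT to 16.8 CPM (SD 4.01, n = 4) in RC/RC mice, a 0.484-fold level (log2 fold change -1.05, SE 0.18, edgeR adjusted p = 0.00558). This call was made again in each of 12 other settings and with each mouse left out in turn, with log2 fold changes of -1.17 to -0.83.

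In RC/RC:*Casp1*KO mice *Lhx1* was higher than in RC/RC mice, at 30.7 ± 4.54 CPM, or 1.82-fold (log2 fold change 0.87, SE 0.18, edgeR adjusted p = 0.0210). It was called in all 10 other settings and in 5 of the 8 fits that leave out a mouse. Without RC140 the log2 fold change was 0.77 (adjusted p = 0.0630), without Del3_60 it was 0.80 (adjusted p = 0.0599) and without Del3_105 it was 0.81 (adjusted p = 0.0666). Calls over all genes numbered 438, 606 and 440 in these fits, against 1797 with all mice. Between RC/RC:*Casp1*KO and WT mice the log2 fold change was -0.17 (SE 0.13, edgeR adjusted p = 0.477), which did not pass the test. The first and second comparisons share the RC/RC mice, so low values in those mice enter both.

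*Lhx1os*, a long noncoding RNA gene that starts 125 bases from *Lhx1* and runs in the opposite direction (chr11:84525660-84535831, mm10), was singled out after its values were seen. It did not pass the test in any comparison. *Lhx1os* stood at 13.6 ± 2.68 CPM in WT, 11.9 ± 3.09 in RC/RC and 14.8 ± 2.33 in the double mutant (SD of 4 mice), with log2 fold changes of -0.21 (SE 0.22, edgeR adjusted p = 0.549) for RC/RC against WT and 0.31 (SE 0.21, adjusted p = 0.329) for RC/RC:*Casp1*KO against RC/RC. The ratio of *Lhx1* to *Lhx1os* was 2.95, 3.12, 2.19 and 2.13 in the WT mice. In the RC/RC mice it was 2.35, 1.36, 0.880 and 1.45. The RC/RC ratios overlapped the WT ratios through RC105, a mouse with low *Slc7a13*, which was above B6_4 and B6_6, both with high *Slc7a13*, and below B6_2 and B6_3. The test took no account of *Slc7a13*, and the log2 ratio differed by -0.85 between these groups, which did not pass a two-sided exact permutation test (p = 0.0857, Benjamini-Hochberg p = 0.257 over 3 comparisons, smallest possible p = 0.0286). For RC/RC:*Casp1*KO against RC/RC mice it differed by 0.55 (exact p = 0.171, adjusted 0.257). With this number of mice a single comparison could not pass after that adjustment.

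The genes whose pattern was most like that of *Lhx1* over the 12 mice were *Atp2b2*, a plasma membrane calcium pump, *Inpp5e*, a phosphatase of the primary cilium, and *Slc12a3*, the thiazide-sensitive cotransporter of the distal convoluted tubule. Their Pearson correlations of log2 CPM with *Lhx1* were 0.969, 0.966 and 0.964 among 14879 genes, and 0.868, 0.856 and 0.884 after the group means were taken out. These values describe points that share a library and a genotype, and they carry no test. *Tfcp2l1* ranked 60th of those genes by likeness to *Lhx1*, at 0.911.

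*Slc12a3* stood at 1006, 963, 788 and 1154 CPM in WT mice. It stood at 390, 145, 145 and 286 CPM in RC/RC mice and at 903, 792, 329 and 586 CPM in RC/RC:*Casp1*KO mice. *Slc12a3* was named above for its likeness to *Lhx1*, so a match of their low mice follows from that choice. The mice with the lowest *Lhx1* in each *Pkd1* mutant group, RC139 with RC140 and Del3_42, were also those with the lowest *Slc12a3*. They had the highest mitochondrial share of reads in their groups, at 12.1%, 11.6% and 10.4%. The share was 8.68% and 9.37% in RC105 and RC143, and 7.78% to 9.55% in the other double mutants. In WT mice it was 9.37% to 10.6%, and B6_4, the WT mouse lowest in both genes, had the lowest share. Its part in these levels was not tested. Of the 8 genes of the distal convoluted and connecting tubule, 5 fell in RC/RC against WT mice, with a median log2 fold change of -1.40. They were *Slc12a3* (-2.03, edgeR adjusted p = 0.00444), *Calb1*, the calcium-binding calbindin (-2.17), *Klk1*, a kallikrein and the most abundant gene of the list (-1.92), *Pvalb*, the calcium-binding parvalbumin (-1.40), and *Slc8a1*, a sodium-calcium exchanger (-1.40), which was called in 2 of the 8 fits that leave out a mouse. Without RC139 the count was 3, and *Slc12a3* remained among them (log2 fold change -1.88, adjusted p = 0.0100). The summed level of the list was 4127 ± 1140 CPM in WT, 1327 ± 540 in RC/RC and 1752 ± 602 CPM in double mutant mice. Against RC/RC mice, 1 gene rose in RC/RC:*Casp1*KO mice, *Slc12a3* (log2 fold change 1.44, edgeR adjusted p = 0.0454), in 2 of the 8 fits that leave out a mouse, and it was not called without RC139 (1.28, adjusted p = 0.110) or without Del3_70 (1.49, adjusted p = 0.0685). *Calb1* and *Klk1* were still lower than in WT mice, by log2 fold changes of -1.73 and -1.88. Only 1 and 3 of the 8 fits that leave out a mouse repeated these calls, and without Del3_70 the log2 fold changes were -1.59 (adjusted p = 0.118) and -1.73 (adjusted p = 0.0752). Both calls held with the *Slc7a13* level as a covariate (edgeR adjusted p = 0.000968 and 6.7e-05). In whole kidney, fewer cells of a segment and less RNA per cell cannot be told apart.

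**Figure D2:**
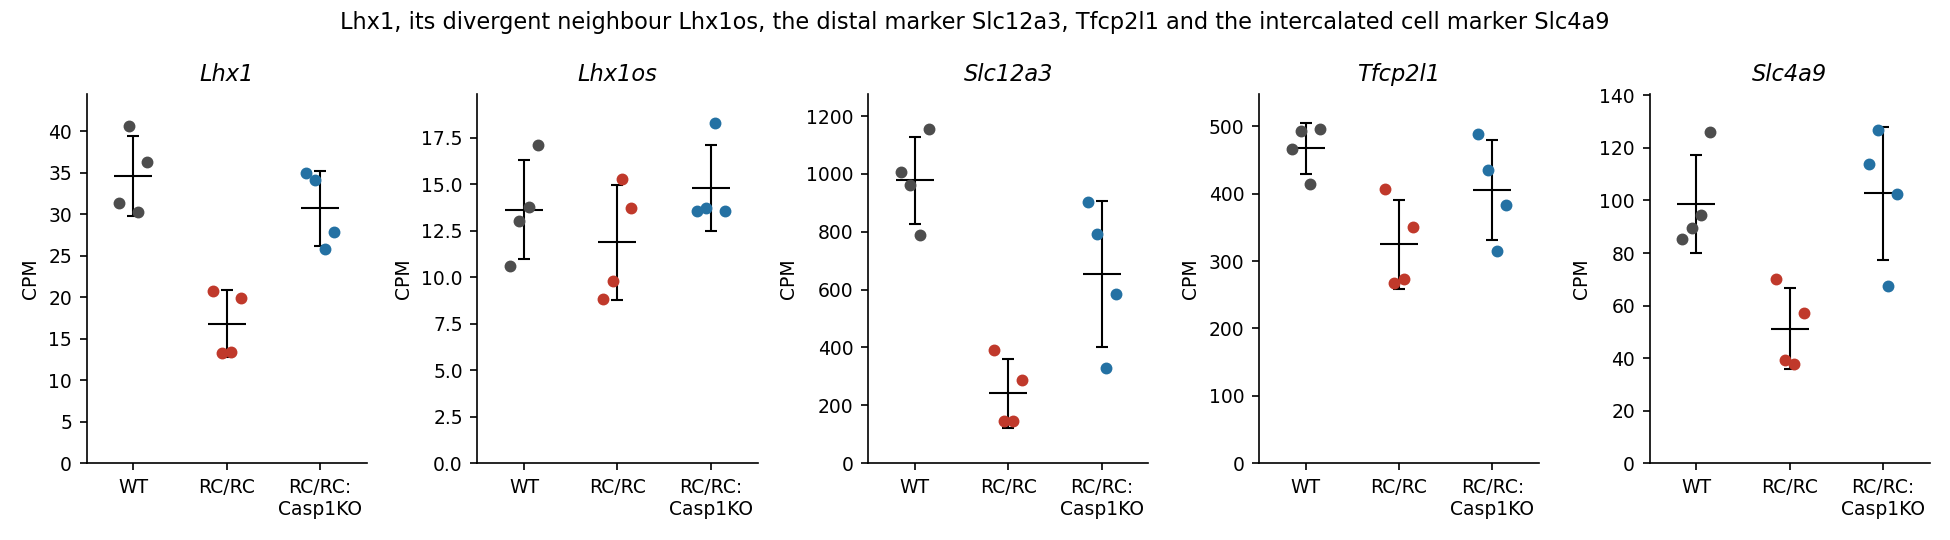
Levels (CPM, linear axes from 0) of *Lhx1*, its neighbor *Lhx1os*, the distal tubule gene *Slc12a3*, *Tfcp2l1* and the intercalated cell gene *Slc4a9* in each mouse (points), with group mean and SD (bars). The RC/RC mice (red) lie below all WT mice for *Lhx1*, *Slc12a3*, *Tfcp2l1* and *Slc4a9* and overlap them for *Lhx1os*.

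*Tfcp2l1* (ENSMUSG00000026380, chr1:118627945-118685168, plus strand, mm10) stood at 466, 493, 414 and 496 CPM in the WT mice. It stood at 407, 268, 273 and 351 CPM in the RC/RC mice, and at 488, 435, 314 and 384 CPM in the RC/RC:*Casp1*KO mice. In CPM all RC/RC mice were below all WT mice, narrowly for RC105 against B6_4, and the RC/RC:*Casp1*KO mice overlapped both. In FPKM, which was computed without TMM factors, RC105 (46.8) was above B6_4 (43.5), so that RC/RC and WT mice overlapped. The RC/RC mean was 0.691 of the WT level (log2 fold change -0.53, SE 0.16, edgeR adjusted p = 0.0582). *Tfcp2l1* passed the threshold with DESeq2 (adjusted p = 0.00766), with a dispersion shared by all 12 mice (adjusted p = 0.0433), with the *Slc7a13* level as a covariate (adjusted p = 0.0428) and without RC105 (adjusted p = 0.0290), and not in the other 16 fits. For RC/RC:*Casp1*KO against RC/RC mice the log2 fold change was 0.32 (SE 0.18, edgeR adjusted p = 0.260), and against WT mice it was -0.20 (SE 0.14, adjusted p = 0.431).

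Genes tied to TFCP2L1 in intercalated cells, *Foxi1*, *Jag1*, *Atp6v1b1*, *Kit* and *Slc4a9*, gave 1 call of 5. *Slc4a9*, an anion transporter of beta-intercalated cells, fell in RC/RC mice (log2 fold change -0.96, edgeR adjusted p = 0.0187) and rose in RC/RC:*Casp1*KO against RC/RC mice (1.01, adjusted p = 0.0317). The second call was made in 3 of the 8 fits that leave out a mouse, and RC139 (0.93, adjusted p = 0.0803) and Del3_70 (1.01, adjusted p = 0.0520) were among the mice without which it was lost. *Foxi1*, the forkhead factor of the intercalated cell, was at 0.34 (adjusted p = 0.121) in the first comparison and -0.13 (adjusted p = 0.663) in the second. *Slc4a9* was also the single call among the 10 intercalated cell genes, all of which had negative log2 fold changes in RC/RC against WT mice, with a median of -0.63. WT mouse B6_2 stood above the other WT mice in some of them. It had *Aqp6* at 194 CPM against 42.7 to 87.9, and *Atp6v1g3* at 128 CPM against 40.7 to 78.6. The RC/RC mice stood at 62.9 to 113 and 46.9 to 74.8 CPM. *Slc26a4*, the pendrin of beta-intercalated cells, was among the 10 genes at -0.93 (adjusted p = 0.0567). It was the gene most like *Tfcp2l1* over the 12 mice (Pearson r = 0.979, and 0.970 with group means taken out), followed by *Gca*, a calcium-binding grancalcin (0.971), and *Wnk1*, a kinase that acts on distal salt transport (0.966). Of the 9 principal cell genes tested, none was called in any of the 3 comparisons, and their median in the first was 0.51, with 8 of 9 positive. With the *Slc7a13* level as a covariate, 5 intercalated and 2 principal cell genes were called in the first comparison. The intercalated and principal cell medians thus had opposite signs in RC/RC mice, and that difference was not tested.

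*Grhl2* (ENSMUSG00000022286, chr15:37233036-37363569, plus strand, mm10) had the fewest reads per length. It stood at 8.90, 10.8, 7.44 and 6.61 CPM in WT mice, 17.1, 12.4, 10.9 and 8.16 CPM in RC/RC mice, and 15.5, 13.5, 8.31 and 9.86 CPM in RC/RC:*Casp1*KO mice. The mutant groups overlapped WT through RC143, Del3_42 and Del3_70, which are all among the mice with high *Slc7a13*. Its log2 fold changes against WT were 0.52 (SE 0.24, edgeR adjusted p = 0.180) in RC/RC and 0.49 (SE 0.23, adjusted p = 0.242) in RC/RC:*Casp1*KO mice, and neither passed the test. With the *Slc7a13* level as a covariate they were 0.48 (edgeR adjusted p = 0.0636) and 0.48 (adjusted p = 0.0470), so that *Grhl2* was called in RC/RC:*Casp1*KO against WT mice in that fit. Between the mutant groups it was -0.03 (SE 0.25, adjusted p = 0.942), a value whose sign changed with the scaling. Of 6 epithelial genes tied to GRHL2 (*Cdh1*, *Cldn4*, *Rab25*, *Ovol2*, *Epcam* and *Esrp1*), 1 was called. *Cldn4*, a tight-junction claudin, rose from 23.4 ± 7.13 CPM in WT to 52.0 ± 6.29 CPM in RC/RC mice (log2 fold change 1.15, edgeR adjusted p = 0.0103). It was lower at 24.5 ± 9.01 CPM in RC/RC:*Casp1*KO mice (log2 fold change -1.08, adjusted p = 0.0297), a call made in 4 of the 8 fits that leave out a mouse and not in that without RC139 (-1.04, adjusted p = 0.0741). The genes most like *Grhl2* were *Ube2c*, an enzyme of mitosis (0.959), *P2ry2*, a nucleotide receptor (0.950), and *Gprc5b*, an orphan receptor (0.945).

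*Gata3* (ENSMUSG00000015619, chr2:9857078-9890034, minus strand, mm10) stood at 16.5, 15.3, 20.5 and 11.8 CPM in WT mice, 21.3, 25.6, 22.9 and 16.8 CPM in RC/RC mice, and 19.0, 19.4, 14.3 and 18.4 CPM in RC/RC:*Casp1*KO mice. RC105, RC139 and RC140 were above all WT mice, and RC143 was within them. The log2 fold change was 0.43 (SE 0.19, edgeR adjusted p = 0.166) for RC/RC against WT and -0.28 (SE 0.15, adjusted p = 0.231) for RC/RC:*Casp1*KO against RC/RC mice. Against WT, RC/RC:*Casp1*KO mice gave 0.16 (SE 0.17, adjusted p = 0.603). GATA3 is also the factor of type 2 helper T cells and innate lymphoid cells. Of the 9 T cell and innate lymphoid genes, 7 rose in RC/RC against WT mice, with a median log2 fold change of 1.95, among them *Il1rl1*, the IL-33 receptor (2.06), *Il7r* (2.05) and *Cd3e* (1.95). Without RC139 the count was 5. None passed the test in the other 2 comparisons, with medians of -0.88 and 1.20, and without Del3_70 there were 3 calls in the second. The 9 genes summed to 83.0 ± 7.81 CPM in WT, 95.7 ± 16.9 in RC/RC and 89.1 ± 16.5 in double mutant mice, *Rora* being the most abundant, and none was at 0 in all mice. The part of these cells in the *Gata3* level was not tested. The genes most like *Gata3* were *Cck* (0.974), which encodes cholecystokinin, *Muc1* (0.962), a mucin of distal tubule and collecting duct epithelium, and *Adora1* (0.959), an adenosine receptor.

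*Hnf4a* (ENSMUSG00000017950, chr2:163506808-163572910, plus strand, mm10) stood at 1016, 1020, 1093 and 1008 CPM in WT mice. It stood at 760, 634, 971 and 1097 CPM in RC/RC mice and at 897, 789, 1011 and 797 CPM in RC/RC:*Casp1*KO mice. The RC/RC mice spread widely, from 634 in RC139 to 1097 in RC143, the highest level of all 12 mice. The low values were those of RC105 and RC139, the RC/RC mice with low *Slc7a13*, while RC140 and RC143, with high *Slc7a13*, were near the WT mice. The other groups did not part in this way. B6_2 and B6_3, with low *Slc7a13*, were level with B6_6, and Del3_70, with high *Slc7a13*, was near Del3_105 and below Del3_60. The log2 fold change was -0.26 (SE 0.18, edgeR adjusted p = 0.359) for RC/RC against WT, 0.01 (SE 0.20, adjusted p = 0.982) for the double mutant against RC/RC, and -0.24 (SE 0.11, adjusted p = 0.250) for RC/RC:*Casp1*KO against WT mice. Its paralog *Hnf4g* (ENSMUSG00000017688, chr3:3508030-3659775, plus strand, mm10) ranged from 6.55 to 17.1 CPM in WT, 6.68 to 14.9 in RC/RC and 8.04 to 16.3 CPM in RC/RC:*Casp1*KO mice, so that all 3 groups overlapped. Its largest log2 fold change was 0.17 (SE 0.28, edgeR adjusted p = 0.715), between the mutant groups. The genes most like *Hnf4a* were *Pafah2*, a phospholipase (0.974), *Metap1*, an aminopeptidase (0.970), and *Degs1*, a sphingolipid desaturase (0.966), and those most like *Hnf4g* were *St8sia6* (0.934) and *Lphn2* (0.932).

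Of 9 genes tied to HNF4 in the proximal tubule or liver, 1 was called in RC/RC against WT mice. It was *Slc5a2*, the SGLT2 glucose transporter (log2 fold change -1.23, edgeR adjusted p = 0.0199), and 8 of the 9 had negative values, with a median of -0.60. None passed the test in RC/RC:*Casp1*KO against RC/RC mice, and *Ttr*, which encodes transthyretin, was lower in RC/RC:*Casp1*KO than in WT mice (-1.46, edgeR adjusted p = 0.0279), in 3 of the 8 fits that leave out a mouse. Of 20 proximal tubule genes, 2 fell in RC/RC mice, *Slc5a2* and *Cubn*, the endocytic receptor cubilin (-1.08), with a median of -0.58. In RC/RC:*Casp1*KO against RC/RC mice 2 rose, *Lrp2*, the endocytic receptor megalin (1.52, edgeR adjusted p = 0.0144), and *Cubn* (1.34, adjusted p = 0.0146), in each of the 8 fits that leave out a mouse. Without RC139, 1 of the first 2 calls was lost (*Cubn*, adjusted p = 0.0791), and it was made in 4 of the 8 such fits. With the *Slc7a13* level as a covariate, 4 and 5 proximal tubule genes and 3 and 2 of the genes tied to HNF4 were called in the first and second comparisons. Both lists hold *Slc34a1*, *Slc5a2*, *Slc22a6*, *Slc22a8*, *Cdhr5* and *Pck1*, so their counts and medians are not separate results. *Hnf4a* itself moved by 0.01 in the comparison in which *Lrp2* and *Cubn* rose, and by -0.0834 to 0.15 with a mouse left out. A link between these genes was not tested.

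The paired-box factors gave no call. *Pax2* (ENSMUSG00000004231, chr19:44756045-44837871, plus strand, mm10) ranged from 39.3 to 72.4 CPM in WT, 31.9 to 60.5 in RC/RC and 41.99 to 70.9 CPM in RC/RC:*Casp1*KO mice. Its log2 fold changes were -0.16 (SE 0.23, edgeR adjusted p = 0.679) for RC/RC against WT and 0.19 (SE 0.21, adjusted p = 0.562) for RC/RC:*Casp1*KO against RC/RC mice. *Pax8* (ENSMUSG00000026976, chr2:24420560-24475599, minus strand, mm10) ranged from 53.1 to 78.6, 58.5 to 68.6 and 57.9 to 71.3 CPM in the same groups. Its log2 fold changes were -0.02 (SE 0.13, edgeR adjusted p = 0.943), -0.04 (SE 0.10, adjusted p = 0.789) and -0.05 (SE 0.13, adjusted p = 0.857) in the 3 comparisons, and their signs changed with the scaling. All 3 groups overlapped for both genes. Of 6 genes tied to PAX2 and PAX8, *Slc14a2*, *Wt1*, *Gata3*, *Ret*, *Lhx1* and *Wnt4*, only *Lhx1* was called, in the first 2 comparisons, and *Slc7a13* as a covariate gave 2 calls in the second. The genes most like *Pax2* were *Map2* (0.912), *Myzap* (0.906) and *Rhpn2* (0.904), and those most like *Pax8* were *Nfya* (0.894), *Trmt1* (0.862) and *Fbxo28* (0.861).

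**Figure D3:**
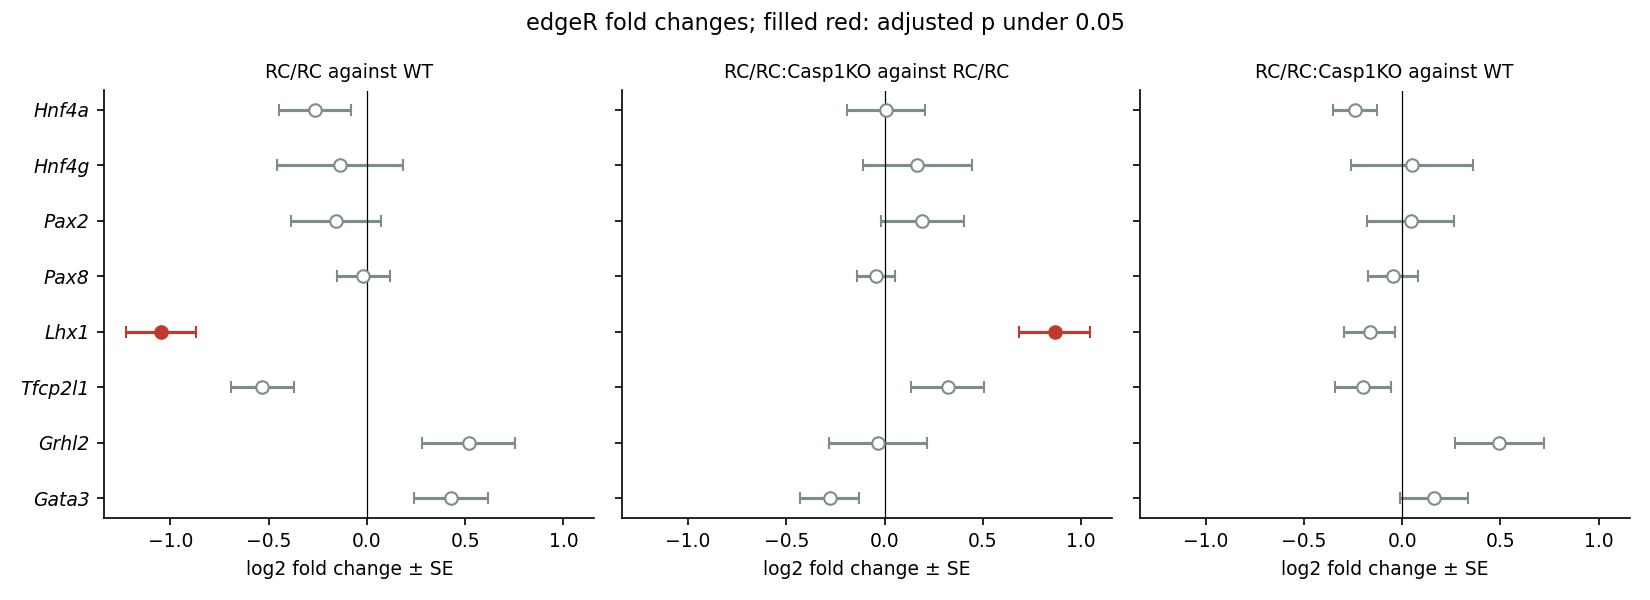
Log2 fold change (horizontal axis) with SE for each of the 8 transcription factors in the 3 comparisons, each from an edgeR fit of 8 mice. Filled red points passed an adjusted p of 0.05, and *Lhx1* is the one filled point in RC/RC against WT (-1.05) and in the double mutant against RC/RC (0.87), with none in RC/RC:*Casp1*KO against WT.

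The second comparison, RC/RC:*Casp1*KO against RC/RC, asks what loss of *Casp1* changed in the diseased kidney. Of the 8 members, 1 was called (*Lhx1*, higher), against 11.6% of 15428 genes tested (7.23% higher and 4.41% lower). The groups did not overlap for 1 member, and this held for 20.5% of all genes (11.3% higher and 9.18% lower). The median log2 fold change was 0.09 over the members and -0.03 over all genes. In the third comparison, RC/RC:*Casp1*KO against WT, edgeR called 0 of 8 members, against 2.03% of 15346 genes (1.13% higher and 0.893% lower). None of the 8 reached an unadjusted p under 0.05, a cut that 3343 of the 15346 genes passed. DESeq2 also called 0 members, against 1390 of the 23869 genes it tested. The fit with *Slc7a13* called 1 (*Grhl2*), against 8.45% of all genes. The groups overlapped for every member, while the groups did not overlap for 13.7% of all genes (7.47% higher and 6.22% lower). The median was -0.0019 over the members and 0.01 over all genes. The balance of higher and lower calls over all genes moved with the scaling. With TMM factors, 1487 of 1971, 1116 of 1797 and 174 of 311 calls were higher in the 3 comparisons in turn, and with library size alone 1634 of 1897, 814 of 993 and 281 of 352 were. In the third comparison library size alone put the median of all genes at 0.14, against 0.01 with TMM factors, and none of the 8 members was called with either.

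A list of 28 other transcription factors of the kidney tubule was tested beside the 8. In RC/RC against WT mice 3 rose and 2 fell, with a median of -0.0345. *Sox9*, a factor of repairing tubule cells, rose from 0.950 ± 0.195 to 3.36 ± 0.680 CPM (SD, n = 4, log2 fold change 1.81, edgeR adjusted p = 0.00255). *Elf3*, an epithelial ETS factor (1.07), and *Sox4* (1.00) also rose. *Ppara*, the nuclear receptor of fatty acid oxidation (-0.90), and *Emx1*, a homeodomain factor (-0.54), fell. Without RC139 the count was 4, and *Emx1* (adjusted p = 0.1004) was the call lost. It was called in 1 of the 8 fits that leave out a mouse.

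*Ppara* stood at 85.8, 101, 76.4 and 91.1 CPM in WT mice, 56.02, 31.03, 45.8 and 57.9 CPM in RC/RC mice, and 75.7, 77.4, 77.8 and 71.7 CPM in RC/RC:*Casp1*KO mice. The RC/RC mice were below all others, and the other 2 groups overlapped. *Ppara* rose in RC/RC:*Casp1*KO against RC/RC mice (log2 fold change 0.66, edgeR adjusted p = 0.0421), and *Elf3* fell (-0.75, adjusted p = 0.0334), each in 3 of the 8 fits that leave out a mouse. Without RC139 *Ppara* was called (0.53, adjusted p = 0.0372) and *Elf3* was not (-0.61, adjusted p = 0.0957), while without Del3_70 *Elf3* was called (-0.85, adjusted p = 0.0337) and *Ppara* was not (0.69, adjusted p = 0.0659). No gene of the list was called in RC/RC:*Casp1*KO against WT mice, and 2 were with the *Slc7a13* level as a covariate.

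**Figure D4:**
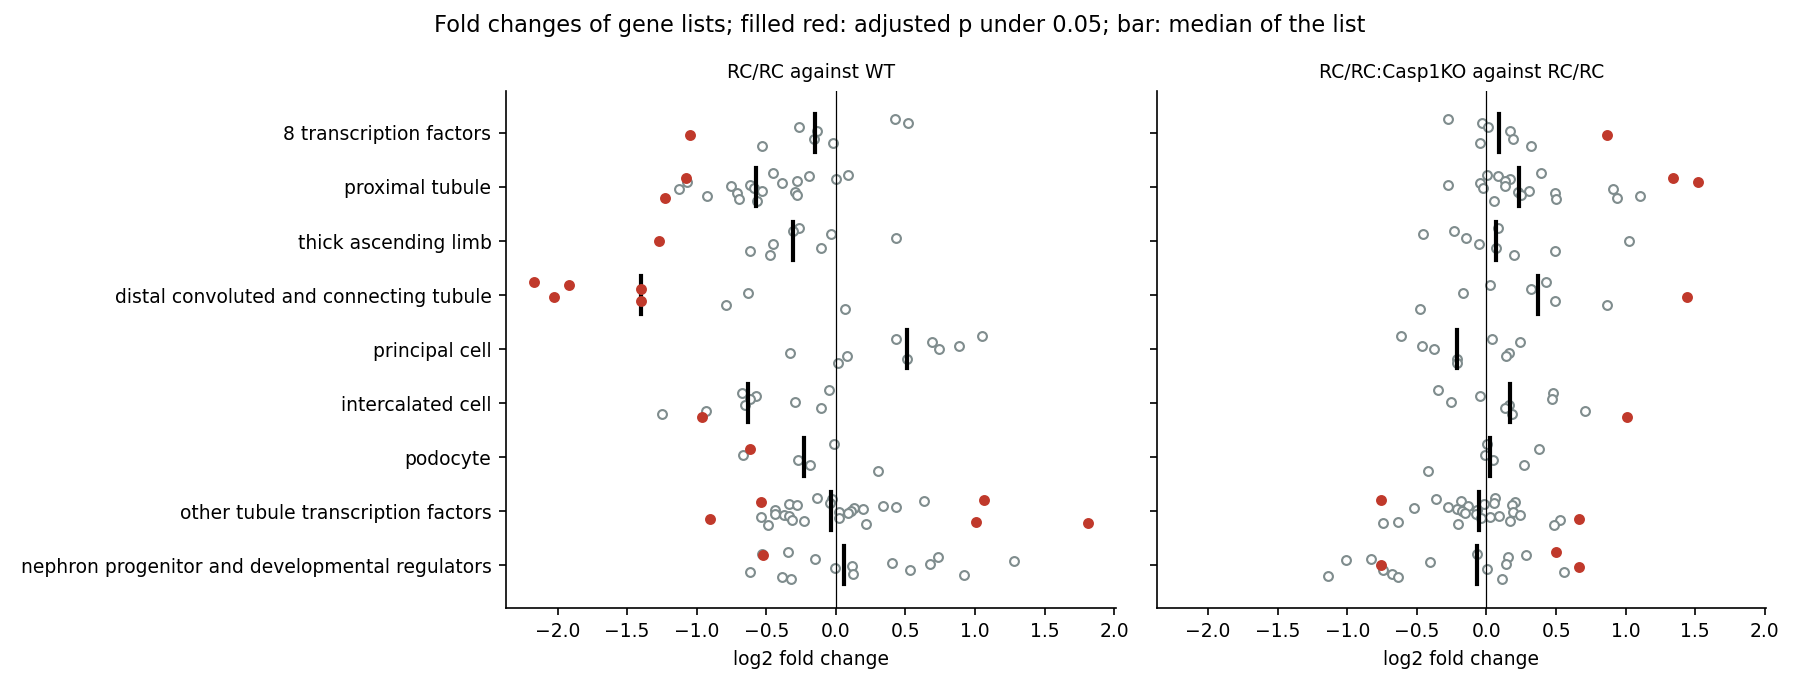
Log2 fold changes (horizontal axis) of the members and of 8 other gene lists in RC/RC against WT (left) and RC/RC:*Casp1*KO against RC/RC (right). Each point is a gene, filled red where the adjusted p was under 0.05, and the bar is the median of the list. Of the lists drawn, the distal convoluted and connecting tubule has the lowest median (-1.40) and 5 filled points in the first comparison, where the 8 factors have 1.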

How the data were processed

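Per the labels, poly(A) RNA of whole kidneys was made into libraries and sequenced. The submitters' processing notes name CASAVA 1.8, STAR and mm10. The counting tool, annotation and strand setting are not given in the sources used here. The authors deposited 1 table with raw counts, gene lengths and coordinates. Its 15 FPKM columns (12 mice and 3 group means), normalized group means and the authors' fold changes and p-values were not used. FPKM was computed from the counts, gene length and counted reads of each mouse.

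Counts were tested with edgeR 4.0.16 (R 4.3.3) quasi-likelihood fits of the 8 mice of each pair of groups, with TMM factors and filterByExpr, and Benjamini-Hochberg adjustment over all genes tested. A gene was called at an adjusted p under 0.05. SE is the log2 fold change over the square root of F. The edgeR fit of RC/RC against WT was also run on simulated counts without the *Slc7a13* split, and its outcome is not given here. The alternatives were DESeq2 1.42.0, other scalings and filters, a shared dispersion, limma 3.58.1 on log2(FPKM + 1) and log2(FPKM + 0.1), and leaving out each mouse. Fits without pairs of WT mice, fits with *Slc7a13* as a covariate, the lists without RC139 or Del3_70 and the *Lhx1* to *Lhx1os* ratio were added after seeing the data. Named genes were the members, *Casp1*, *Pkd1*, genes of 21 lists, the 3 genes most correlated with each member, and genes overlapping a member. The members and lists were chosen with earlier results of these data known. Older symbols matched 2 list genes. A few genes, and 1 list beyond these 21, are not reported here.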

Additional observations from a re-analysis of the deposited data

Results flagged for a closer look

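Among 24 sets of 4 values (8 members in 3 groups), 1 had a mouse set apart from the rest of its group. *Hnf4a* in WT mouse B6_4, at 1093 CPM, stood above the other WT mice at 1008 to 1020 CPM, with a gap of 0.863 of the group's range, past Dixon's critical value for 4 samples. Chance marks about 1 in 20 such sets.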

How the results depend on the processing

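No paired analysis was possible because the columns carry no replicate numbers. In RC/RC against WT, DESeq2 and a dispersion shared by all 12 mice each added *Tfcp2l1*. Calls over all genes rose in these fits too. DESeq2 called 3018 of the 23626 genes it tested and the shared dispersion 2568 of 15243, against 1971 of 15243. The members called numbered 2 in each of these fits. With *Slc7a13* as a covariate they numbered 2 (*Lhx1* and *Tfcp2l1*), 1 (*Lhx1*) and 1 (*Grhl2*) in the 3 comparisons, and all genes called 2722, 2636 and 1296. With each mouse left out, they numbered 1 to 2, 0 to 1 and 0 to 0 in the 3 comparisons. All genes called numbered 1971 in RC/RC against WT, 3018 with DESeq2, 952 without B6_4 and B6_6, and 1162 to 2440 with a mouse left out. In RC/RC:*Casp1*KO against RC/RC they numbered 1797, 3182 with DESeq2, 993 with library size alone, 1052 and 1106 with limma on log2(FPKM + 1) and log2(FPKM + 0.1), and 438 to 2789 with a mouse left out. In RC/RC:*Casp1*KO against WT they numbered 311, 1390 with DESeq2, 167 among genes with a minimum of 10 counts per mouse, 74 without B6_2 and B6_3, 1876 without B6_4 and B6_6, and 108 to 547 with a mouse left out. The causes were not tested.

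In comparisons in which they were called in no fit, some members changed sign. *Pax8* was at 0.0795, 0.0851 and 0.0897 in RC/RC against WT, 0.003911, 0.004327 and 0.004608 in the double mutant against RC/RC, and 0.0834, 0.0894 and 0.0943 in RC/RC:*Casp1*KO against WT with library size alone and the 2 limma fits. With *Slc7a13* as a covariate, *Pax8* was at 0.002019 in RC/RC against WT. *Grhl2* was at 0.003788, 0.009618 and 0.01602 in RC/RC:*Casp1*KO against RC/RC with library size alone and the 2 limma fits. Without B6_4 and B6_6, *Pax8* was at 0.17 and 0.14 against WT for RC/RC and for the double mutant, and *Hnf4g* at 0.37 in RC/RC. Without B6_2 and B6_3, *Hnf4g* was at -0.34 and *Pax2* at -0.0401 in RC/RC:*Casp1*KO against WT. With a mouse left out, RC/RC against WT spanned -0.34 to 0.0935 for *Hnf4g*, -0.31 to 0.00097 for *Pax2* and -0.11 to 0.0586 for *Pax8*. RC/RC:*Casp1*KO against RC/RC spanned -0.0834 to 0.15 for *Hnf4a*, -0.0035 to 0.37 for *Hnf4g*, -0.10 to 0.0142 for *Pax8* and -0.19 to 0.16 for *Grhl2*. RC/RC:*Casp1*KO against WT spanned -0.16 to 0.28 for *Hnf4g*, -0.10 to 0.21 for *Pax2* and -0.14 to 0.0355 for *Pax8*.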

Other observations

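Regulators of the nephron progenitor and of early kidney development gave 1 call of 16, 3 of 17 and 1 of 15 in the 3 comparisons, against 12.9%, 11.6% and 2.03% of all genes. Of 16 tested in RC/RC against WT mice, *Etv5*, an ETS factor downstream of RET, fell (log2 fold change -0.53, edgeR adjusted p = 0.0193). In RC/RC:*Casp1*KO against RC/RC mice, 17 were tested. *Notch2*, the receptor that patterns the proximal nephron (0.66), and *Bmp7*, a tubule ligand (0.50), rose, and *Meox1*, a homeodomain factor (-0.76), fell. None of these 3 was called without RC139, with log2 fold changes of 0.65 (adjusted p = 0.0511), 0.44 (adjusted p = 0.0593) and -0.60 (adjusted p = 0.0867), and *Meox1* was not called without Del3_70 (-0.73, adjusted p = 0.0629). *Notch2* was also higher in RC/RC:*Casp1*KO than in WT mice (0.79, edgeR adjusted p = 0.0275), the one call of 15 tested, in 3 of the 8 fits that leave out a mouse.

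Genes of other cell types moved in the same libraries, and their part in the values of the members was not tested. In RC/RC against WT mice, edgeR called 7 of 12 tubular injury genes, 7 of 8 stroma, 7 of 8 macrophage and 6 of 6 B cell and plasma cell genes higher, with 3 of the B cell and plasma cell genes left without RC139. All 5 red cell genes were called lower. Of the thick ascending limb genes 1 of 9 (*Egf*, not called without RC139) and of the podocyte genes 1 of 6 (*Nphs1*) were lower, each in 2 of the 8 fits that leave out a mouse. The 7 endothelium, 8 urothelium and 2 adipocyte genes tested gave no call, and without RC139 there was 1 adipocyte call. In RC/RC:*Casp1*KO against RC/RC mice, 2 tubular injury, 5 stroma, 2 macrophage, 1 endothelium and 1 B cell and plasma cell genes were lower, and without RC139 these counts were 0, 2, 0, 0 and 0. Without Del3_70, the double mutant with the highest summed levels of the injury and macrophage lists, the calls numbered 7, 6, 5, 0 and 2. Against WT mice, RC/RC:*Casp1*KO mice gave other counts, and 1 stroma gene (*Dcn*), 1 macrophage gene (*Cd74*) and 3 of 5 B cell and plasma cell genes were higher, and 4 of 5 red cell genes were lower. Without Del3_70 the calls numbered 1, 0, 1 and 1. With the *Slc7a13* level as a covariate, the tubular injury genes called numbered 12, 5 and 3 and the endothelium genes 3, 3 and 1 in the 3 comparisons.

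Genes on the strand opposite to a member cannot be told apart from it where counting took no account of strand. *Lhx1* and *Hnf4g* overlap no other gene of the table. The overlapping genes tested in RC/RC:*Casp1*KO against RC/RC mice were *Hnf4aos*, *1700039E22Rik*, *Gm13415*, *Gm16136* and *4930412O13Rik*. Of these, 3 rose, against 7.23% of all genes tested. They were *1700039E22Rik* within *Pax2* (log2 fold change 3.54, edgeR adjusted p = 0.00288), *Gm13415* at *Pax8* (2.33, adjusted p = 0.0289) and *4930412O13Rik* at *Gata3* (1.78, adjusted p = 0.0270). None of the 3 passed the filter on low counts in RC/RC against WT mice. They passed it in the second comparison through their reads in the double mutants, so a fall could hardly have been seen. *1700039E22Rik* was called in each of the 8 fits that leave out a mouse. *Gm13415* and *4930412O13Rik* were called in 3 each, with both lost without RC139 (adjusted p = 0.0767 and 0.0604). The antisense share of all reads was also higher in every RC/RC:*Casp1*KO library than in every RC/RC library, and its part in these calls was not tested. Their reads numbered 1 to 41, 2 to 84 and 2 to 33 in a mouse, against 742 or more for *Pax2*, 1109 or more for *Pax8* and 251 or more for *Gata3*. *Hnf4aos* at *Hnf4a* (85 to 323 reads) and *Gm16136* at the start of *Grhl2* (42 to 136 reads) were called in no comparison.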
